A study of Oryctolagus cuniculus with 34 samples.

Results

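Expression of 5 genes read as macrophage genes was followed in rabbit supraspinatus muscle after repair of a torn rotator cuff tendon: MRC1 (ENSOCUG00000003247), ITGAM (ENSOCUG00000001587), IL10RA (ENSOCUG00000013587), CCL14 (ENSOCUG00000002849) and FTL (ENSOCUG00000000014). They were taken by identifier from a table of 23669 genes, and all 5 were among the 12937 genes that passed the filter on low counts. The animals were skeletally mature female New Zealand White rabbits, 17 in all. In every rabbit the left supraspinatus tendon was cut, left detached for 8 weeks and then repaired, and the right shoulder was the control. The methods call the right shoulder unoperated, while the labels describe a sham cut of the skin. Muscle was taken 1 week after repair from 4 rabbits, at 2 weeks from 5, at 4 weeks from 4 and at 8 weeks from 4, and mRNA from the posterior lateral region of each muscle was sequenced, giving 34 libraries. No shoulder was sampled after tenotomy without repair, so the comparison of left with right holds the tear and its repair together.

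Macrophages enter injured muscle, clear debris and later take on a repair state that supports regeneration and matrix deposition. MRC1, the mannose receptor CD206, takes up glycoproteins and collagen fragments and is a common marker of tissue-resident and repair-state macrophages. ITGAM is the alpha chain of the integrin CD11b/CD18, which macrophages, monocytes, neutrophils and some lymphocytes use to adhere and to take up complement-coated particles. IL10RA is the ligand-binding chain of the receptor for interleukin-10, a cytokine that damps inflammation in leukocytes. CCL14 is a chemokine of the CC family that attracts monocytes, and FTL is the light chain of ferritin, the iron store of nearly every cell, muscle fibres included. FTL therefore marks no single cell type, and in RNA from whole muscle more cells of a type and more RNA per cell cannot be told apart.

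Totals on genes lay between about 9220040 and 28395200 per library in the 33 libraries fitted. They were about 13262900 to 28395200 at 1 and 8 weeks and 9220040 to 12332400 at 2 and 4 weeks, without overlap. The libraries of 1 and 8 weeks carry titles of 1 series and those of 2 and 4 weeks titles of another. Time, title series and depth therefore cannot be told apart. One library, the repaired shoulder of rabbit 3, entered no comparison. The tissue was muscle by its markers. The 3 muscle fibre genes that could be named summed to 3629 to 65016 CPM (counts scaled to the size of the library). Of 25 macrophage genes on a list, 12 were named and passed the filter on low counts, with summed levels of 10.3 to 548 CPM. Genes under that filter were not counted, so the 12 are no check that macrophages were present. The repaired library of rabbit 59 at 2 weeks stood apart: it held that 548 CPM of macrophage genes and the highest level of each of the 5 genes, so the fold changes, group ranks and list medians of 2 weeks that it moves are given also without it.

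Levels below are CPM after scaling by the trimmed mean of M-values (TMM). Fold changes are log2FC of repaired over unoperated muscle from limma-voom, with the standard error (SE), and a gene passed the test when its p-value, adjusted by Benjamini-Hochberg over all 12937 genes, was under 0.05. Averaged over the 4 time points, IL10RA, CCL14 and FTL were higher after repair, 3 of the 5 genes, against 22.4% of all genes that passed in that direction. At single time points only FTL at 2 weeks passed. The counts were 0 of 5 at 1 week (6.81% of all genes), 1 of 5 at 2 weeks (7.95%), 0 of 5 at 4 weeks (0.0773%) and 0 of 5 at 8 weeks (0.00773%). The median log2FC of the 5 genes was 1.16, 1.80, 0.92 and 0.46 at 1, 2, 4 and 8 weeks, and that of all genes was 0.05, 0.06, 0.05 and 0.01. Without the repaired library of rabbit 59 the medians at 2 weeks were 0.88 for the 5 genes and 0.04 for all genes. With the rabbit as a block, which compares the shoulders within each animal, 3 of 5 passed at 1 week (14.8% of all genes) and 4 of 5 at 2 weeks (19.2%). In that fit it was 0 of 5 at 4 weeks (1.82%), 0 of 5 at 8 weeks (0.00773%) and 5 of 5 for the average (26.5%).

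**Figure D1:**
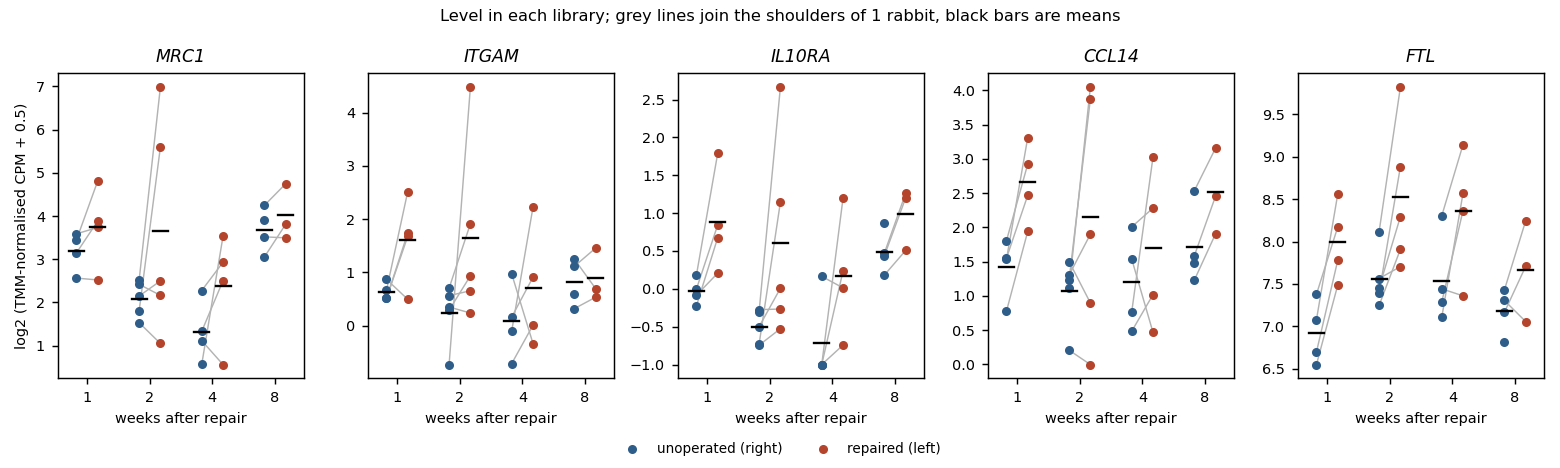
TMM-normalised CPM plus 0.5 on a log2 axis, against weeks after repair, for each of the 5 genes: each point is 1 library, grey lines join the shoulders of a rabbit and black bars are group means. At 2 weeks the 5 repaired muscles of MRC1 run from 1.57 to 126 CPM, while the 5 unoperated muscles lie between 2.40 and 5.19 CPM.

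MRC1, the scavenger receptor, passed the test at no single time point, and its repaired muscles spread widely. At 1 week its level was 5.24, 12.8, 27.6 and 14.3 CPM in the repaired muscles of rabbits 5, 6, 7 and 8, and 5.42, 11.5, 10.4 and 8.35 CPM in their unoperated muscles. The repaired side was the higher one in rabbits 6, 7 and 8 and the lower one in rabbit 5, and the groups overlapped. The log2FC was 0.56 (SE 0.77, limma-voom adjusted p = 0.640).

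At 2 weeks MRC1 stood at 126 and 47.8 CPM in the repaired muscles of rabbits 59 and 62, but at 5.15, 3.99 and 1.57 CPM in those of rabbits 60, 61 and 64. The unoperated muscles of rabbits 59, 60, 61, 62 and 64 held 5.19, 3.93, 4.85, 2.98 and 2.40 CPM. The repaired group therefore split into 2 muscles far above every control and 3 within the control range or below it, with a mean of 36.9 ± 53.3 CPM (SD, n = 5) against 3.87 ± 1.19 CPM. The log2FC was 1.80 (SE 1.01, 95% interval -0.26 to 3.86, adjusted p = 0.194). With the rabbit block it was 2.87 and passed (adjusted p = 0.00439), as it did in edgeR at 3.25 (adjusted p = 0.00401) and in DESeq2 at 3.26 (adjusted p = 8.73e-05). Without the repaired library of rabbit 59 it was 0.88, and without that of rabbit 64 it was 2.47 and passed (adjusted p = 0.0494). At 2 weeks more of all genes passed in edgeR and DESeq2 than in limma-voom. The same limit applies to the calls of these tools for the other genes below.

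At 4 weeks the repaired muscles of rabbits 63, 66, 67 and 68 held 11.1, 5.17, 7.13 and 0.978 CPM of MRC1, and the unoperated ones 0.983, 2.02, 4.35 and 1.67 CPM. The 3 higher repaired values lay above every control and the lowest below every control. The log2FC was 1.21 (SE 1.5, adjusted p = 0.714). By 8 weeks repaired muscles of rabbits 1, 2 and 4 held 10.8, 13.5 and 26.3 CPM, and the unoperated muscles of rabbits 1, 2, 3 and 4 held 10.96, 7.79, 14.5 and 18.5 CPM. Only that of rabbit 4 lay above every control. The log2FC was 0.37 (SE 0.80, adjusted p = 0.999), and the average over the 4 time points was 0.98 (SE 0.53, adjusted p = 0.137), or 1.33 with the rabbit block (adjusted p = 0.00411).

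ITGAM, the leukocyte integrin chain, passed the test at no single time point. The samples nearest to a separation were those of 1 week. In the repaired muscles of rabbits 5, 7 and 8 it stood at 2.84, 5.23 and 2.70 CPM, and in that of rabbit 6 at 0.910 CPM. The unoperated muscles of rabbits 5, 6, 7 and 8 lay close together at 0.926, 1.33, 1.08 and 0.928 CPM. Rabbit 6 alone kept the groups from separating, and the log2FC was 1.16 (SE 0.74, adjusted p = 0.273).

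At 2 weeks ITGAM reached 21.8 CPM in the repaired muscle of rabbit 59, against 1.41, 0.680, 3.27 and 1.08 CPM in those of rabbits 60, 61, 62 and 64. The unoperated muscles of rabbits 59, 60, 61, 62 and 64 held 0.104, 0.725, 0.777, 1.13 and 0.980 CPM, the first of these resting on 1 count. The value of rabbit 59 was therefore the highest of all repaired muscles and its control the lowest of all controls of that time. The log2FC was 2.11 (SE 0.95, 95% interval 0.17 to 4.06, adjusted p = 0.110), and 2.39 with the rabbit block (adjusted p = 0.0507). It passed in edgeR at 2.93 (adjusted p = 0.00878) and in DESeq2 at 2.95 (adjusted p = 0.00118), and without the repaired library of rabbit 59 it was 1.19 in limma-voom.

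At 4 weeks the repaired muscles of rabbits 63, 66, 67 and 68 held 4.18, 0.508, 1.38 and 0.293 CPM of ITGAM, and the unoperated muscles 0.437, 0.112, 0.621 and 1.46 CPM. Rabbit 68 went the other way from the other 3. The log2FC was 0.92 (SE 1.24, adjusted p = 0.738). At 8 weeks the groups overlapped throughout, at 1.12, 0.950 and 2.25 CPM in the repaired muscles of rabbits 1, 2 and 4 and 1.88, 0.750, 1.01 and 1.67 CPM in the unoperated muscles of rabbits 1, 2, 3 and 4 (log2FC 0.15, SE 0.90, adjusted p = 0.999). The average over the 4 time points was 1.09 (SE 0.49, adjusted p = 0.0747), and 1.27 with the rabbit block (adjusted p = 0.0308). It passed too without the repaired library of rabbit 6 at 1.22 (adjusted p = 0.0375) or of rabbit 68 at 1.2 (adjusted p = 0.0483).

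IL10RA, the interleukin-10 receptor chain, was higher on the repaired side in 15 of 16 rabbits. At 1 week its level was 1.298, 0.655, 2.97 and 1.10 CPM in the repaired muscles of rabbits 5, 6, 7 and 8, and 0.499, 0.444, 0.636 and 0.357 CPM in the unoperated muscles. Every repaired muscle lay above every control, if only by a small step for rabbit 6. The log2FC was 1.36 (SE 0.67, adjusted p = 0.155), and 1.59 with the rabbit block (adjusted p = 0.0304).

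At 2 weeks IL10RA stood at 5.84, 0.505, 0.194, 1.71 and 0.331 CPM in the repaired muscles of rabbits 59, 60, 61, 62 and 64, from 92, 5, 2, 25 and 4 counts. The controls of the same rabbits held 0.312, 0.207, 0.0971, 0.103 and 0.327 CPM, from 1 to 3 counts each. Rabbits 59 and 62 carried the difference, and the others differed from their controls by a few counts. The log2FC was 2.06 (SE 0.88, 95% interval 0.27 to 3.86, adjusted p = 0.0944). It passed with the rabbit block at 2.48 (adjusted p = 0.0130), in edgeR at 3.04 (adjusted p = 0.0103) and in DESeq2 at 3.07 (adjusted p = 0.00248). Without the repaired library of rabbit 59 it was 1.28, and it passed without that of rabbit 61 at 2.51 (adjusted p = 0.0391) or of rabbit 64 at 2.43 (adjusted p = 0.0452).

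At 4 weeks IL10RA held 1.79, 0.678, 0.509 and 0.0978 CPM in the repaired muscles of rabbits 63, 66, 67 and 68. It had no count in the unoperated muscles of rabbits 63, 66 and 68, which allows up to 0.328, 0.336 and 0.313 CPM there for counting error alone, and 0.621 CPM in that of rabbit 67. The repaired values of rabbits 63 and 66 lay above those limits and that of rabbit 68 below its limit. The fitted log2FC of 2.47 (SE 1.19, adjusted p = 0.306) depends on the small count that limma-voom adds to zeros. By 8 weeks the repaired muscles of rabbits 1, 2 and 4 held 1.897, 0.921 and 1.80 CPM, and the unoperated muscles of rabbits 1, 2, 3 and 4 held 0.887, 0.635, 1.33 and 0.855 CPM. Each of the 3 pairs was higher on the repaired side, but the groups overlapped and the log2FC was 0.69 (SE 0.64, adjusted p = 0.999).

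Averaged over the 4 time points, IL10RA was higher after repair with a log2FC of 1.65 (SE 0.44, 95% interval 0.75 to 2.54, adjusted p = 0.00465). The call held in 33 of 33 fits that left out 1 library each, at 1.45 to 1.88, and under every alternative tried. The average includes the value of 4 weeks, which depends on controls without a count, and no fit left that time out.

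CCL14, the chemokine, separated the shoulders at 1 week, when the repaired muscles of rabbits 5, 6, 7 and 8 held 3.34, 7.10, 9.43 and 5.04 CPM and the unoperated ones 1.21, 2.99, 2.39 and 2.43 CPM. The lowest repaired value lay above the highest control. The log2FC was 1.42 (SE 0.66, 95% interval 0.07 to 2.77, adjusted p = 0.131), and 1.49 with the rabbit block (adjusted p = 0.0169).

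At 2 weeks CCL14 stood at 16.1 and 14.2 CPM in the repaired muscles of rabbits 59 and 62, and at 3.23, 1.36 and 0.497 CPM in those of rabbits 60, 61 and 64. The unoperated muscles of rabbits 59, 60, 61, 62 and 64 held 1.66, 1.97, 2.33, 1.85 and 0.654 CPM. In rabbits 61 and 64 the repaired side was the lower one, and the group means were 7.08 ± 7.46 and 1.69 ± 0.63 CPM (SD, n = 5 each). The log2FC was 1.32 (SE 0.86, adjusted p = 0.262). It passed with the rabbit block at 1.97 (adjusted p = 0.0103), in edgeR at 2.07 (adjusted p = 0.0208) and in DESeq2 at 2.07 (adjusted p = 0.00669), and without the repaired library of rabbit 59 it was 0.70.

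At 4 weeks the repaired muscles of rabbits 63, 66, 67 and 68 held 7.67, 1.53, 4.36 and 0.880 CPM of CCL14, and the unoperated muscles 1.201, 0.897, 3.52 and 2.40 CPM. The groups overlapped (log2FC 0.56, SE 0.99, adjusted p = 0.805). By 8 weeks the repaired muscles of rabbits 1, 2 and 4 held 5.001, 3.26 and 8.44 CPM, each above its own control. The controls of rabbits 1, 2, 3 and 4 held 2.505, 1.85, 2.29 and 5.30 CPM, so the groups overlapped (log2FC 0.90, SE 0.69, adjusted p = 0.999).

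The average of CCL14 over the 4 time points was 1.05 (SE 0.41, 95% interval 0.22 to 1.88, adjusted p = 0.0401). That call was close to the threshold and was kept in 20 of 33 fits that left out 1 library, at 0.90 to 1.22 with adjusted p from 0.00918 to 0.0812. It was lost without the repaired library of rabbit 4, 6, 7, 63 or 67, and without the unoperated library of rabbit 1, 2, 3, 5, 7, 63, 64 or 66. With the rabbit block it was 1.25 (adjusted p = 0.00106).

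FTL, the ferritin light chain, passed at 2 weeks and on average. At 1 week its level was 179, 377, 219 and 288 CPM in the repaired muscles of rabbits 5, 6, 7 and 8, and 93.1, 135, 103 and 166 CPM in the unoperated muscles. Every repaired muscle lay above every control, with means of 266 ± 86.7 and 124 ± 32.9 CPM (SD, n = 4 each). The log2FC was 1.06 (SE 0.38, 95% interval 0.28 to 1.84, adjusted p = 0.0593), just outside the threshold. It passed at about the same size with the rabbit block (1.06, adjusted p = 0.0113), with a correlation between the shoulders of a rabbit (1.06, adjusted p = 0.0266) and in DESeq2 (1.08, adjusted p = 0.0328). It passed also without the repaired library of rabbit 5 at 1.24, of rabbit 59 at 1.07 or of rabbit 68 at 1.06.

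At 2 weeks FTL was higher in the repaired shoulder of 5 of 5 rabbits, at 904, 471, 208, 313 and 239.6 CPM in rabbits 59, 60, 61, 62 and 64 against 277, 167, 189, 175 and 151 CPM. The groups overlapped through rabbit 59, whose control was above 2 of the repaired muscles. The log2FC was 0.95 (SE 0.33, 95% interval 0.27 to 1.62, adjusted p = 0.0489). This call stood at the edge of the threshold and was kept in 11 of 33 fits that left out 1 library, at 0.65 to 1.16. The lowest value, 0.65 (adjusted p = 0.210), came without the repaired library of rabbit 59. The call was lost also without the repaired library of rabbit 2, 7, 8, 60, 62, 63 or 66 and without the unoperated library of rabbit 1, 2, 3, 4, 5, 6, 7, 8, 60, 61, 62, 63, 64 or 68, at 0.84 to 1.00. With the rabbit block it was 0.92 (adjusted p = 0.00951).

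At 4 weeks the repaired muscles of rabbits 63, 66, 67 and 68 held 329, 379.7, 565 and 164 CPM of FTL, and the unoperated muscles 155, 137, 315 and 173 CPM. All but rabbit 68 were higher on the repaired side by 1.79 to 2.76 times, while the groups overlapped (log2FC 0.81, SE 0.36, adjusted p = 0.275). By 8 weeks the repaired muscles of rabbits 1, 2 and 4 held 133, 208 and 303 CPM and the controls of rabbits 1, 2, 3 and 4 held 158, 143, 112 and 172 CPM (log2FC 0.46, SE 0.40, adjusted p = 0.999). Rabbit 1 was lower on the repaired side. The average over the 4 time points was 0.82 (SE 0.18, 95% interval 0.44 to 1.2, adjusted p = 0.00144), and this call held in 33 of 33 fits that left out 1 library, at 0.75 to 0.91, and under every alternative tried.

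**Figure D2:**
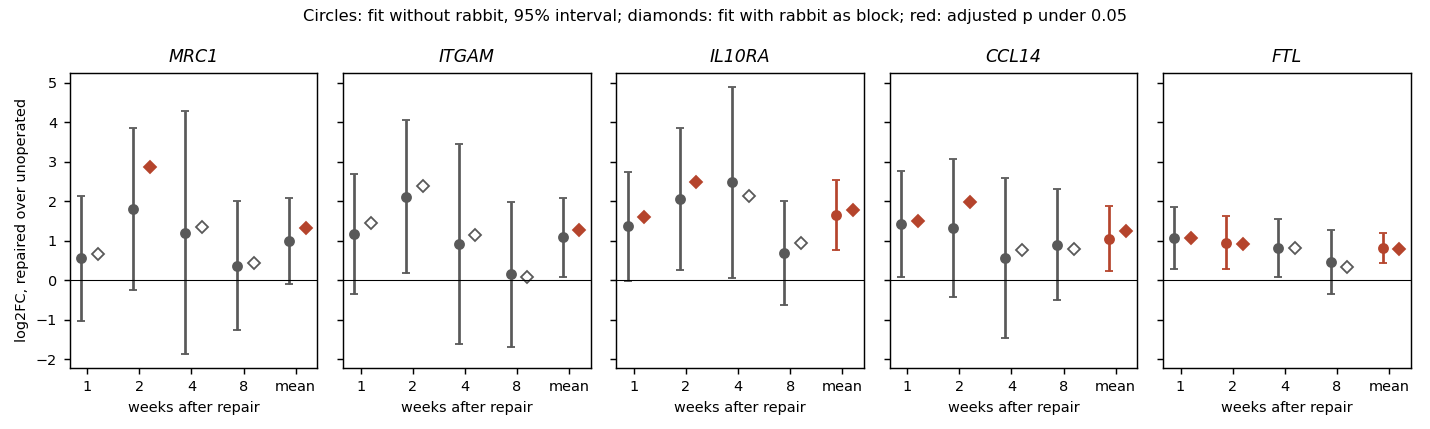
log2FC of repaired over unoperated muscle at each time point and averaged over them: circles with 95% intervals are limma-voom without the rabbit, diamonds are the fit with the rabbit as a block, and red marks an adjusted p under 0.05. Circles are red for FTL at 2 weeks and for the averages of IL10RA, CCL14 and FTL, and the diamonds of all 5 averages are red.

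No repaired group lay wholly above its controls at 2, 4 or 8 weeks for any of the 5 genes, where 4.1%, 5.19% and 4.24% of all genes did. At 1 week IL10RA, CCL14 and FTL did, 3 of 5, where 16.1% of all genes did the same. The fitted log2FC was larger at 1 week than at 8 weeks for each of the 5 genes. The test of that difference passed for none of them. Its sign turned for MRC1 without the repaired library of rabbit 1 or 7 or the unoperated one of rabbit 4 or 5 (lowest -0.19). For CCL14 (-0.18) and FTL (-0.88) it turned only with all 34 libraries, which add the repaired library of rabbit 3 that was left out elsewhere. In the fits that left out 1 library it stayed above 0, at 0.16 to 0.95 for CCL14 and 0.27 to 0.87 for FTL. The log2FC at 1 week exceeded that at 8 weeks by 0.18 (95% interval -2.09 to 2.46) for MRC1, 1.02 (-1.37 to 3.41) for ITGAM, 0.67 (-1.23 to 2.58) for IL10RA, 0.52 (-1.43 to 2.47) for CCL14 and 0.60 (-0.53 to 1.72) for FTL, with adjusted p of 0.838 to 0.973. Between 2 and 4 weeks the difference was 0.60, 1.2, -0.41, 0.76 and 0.14 in the same order, with an adjusted p of 0.9999 for each. In limma-voom 0 of all genes (0%) passed either test, while 683 (5.28%) and 359 (2.77%) had an unadjusted p under 0.05.

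By the mean level of the 8 groups, the repaired muscles of 2 weeks ranked first for all 5 genes, and an unoperated group ranked last. The first rank rested on rabbit 59: without its repaired library the mean of the other 4 was 14.6 CPM for MRC1, 1.61 for ITGAM, 0.686 for IL10RA, 4.83 for CCL14 and 308 CPM for FTL, and it ranked 3, 2, 5, 3 and 2 of 8. Next in the order, or first without rabbit 59, came the repaired muscles of 8 weeks for MRC1 (16.9 ± 8.30 CPM, n = 3) and IL10RA (1.54 ± 0.54 CPM, n = 3), of 1 week for ITGAM (2.92 ± 1.77 CPM, n = 4) and CCL14 (6.23 ± 2.63 CPM, n = 4), and of 4 weeks for FTL (359 ± 165 CPM, n = 4). Lowest were the unoperated muscles of 4 weeks for MRC1, ITGAM and IL10RA, of 2 weeks for CCL14 and of 1 week for FTL. Neighbours in this order overlapped in their ranges for every gene, with 1 exception: the IL10RA controls of 1 week (0.357 to 0.636 CPM) lay above those of 2 weeks (0.0971 to 0.327 CPM).

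Within the animals, the repaired shoulder was the higher one in 11 of 16 rabbits for MRC1, 12 for ITGAM, 15 for IL10RA, 13 for CCL14 and 14 for FTL. Of all genes, 34.4%, 27.3%, 6.79%, 19.9% and 13% reached at least these numbers. The median log2 ratio of repaired over unoperated CPM, with 0.5 added to each, was 0.58, 0.68, 0.78, 0.78 and 0.84 in the same order. Its range over rabbits was widest for ITGAM, from -1.31 in rabbit 68 to 5.20 in rabbit 59, and narrowest for FTL, from -0.25 in rabbit 1 to 1.71 in rabbit 59.

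All 5 genes were higher on the repaired side in 9 of 16 rabbits, 4 genes in 3 rabbits and 3 genes in 1. In rabbits 1 and 61 it was 2 genes, and in rabbit 68 only IL10RA, on 1 count against 0. The rabbits of 2 weeks spanned nearly the whole scale: in rabbit 59 the repaired muscle held 22.2 times the MRC1 of its control, 36.9 times the ITGAM, 7.81 times the IL10RA, 7.66 times the CCL14 and 3.26 times the FTL on the scale of CPM plus 0.5. Rabbit 62 had 13.9 times the MRC1 and 6.28 times the CCL14. Rabbits 61 and 64, at the same time after repair, had ratios of 0.838 and 0.716 for MRC1 and 0.658 and 0.864 for CCL14, that is, less on the repaired side.

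**Figure D3:**
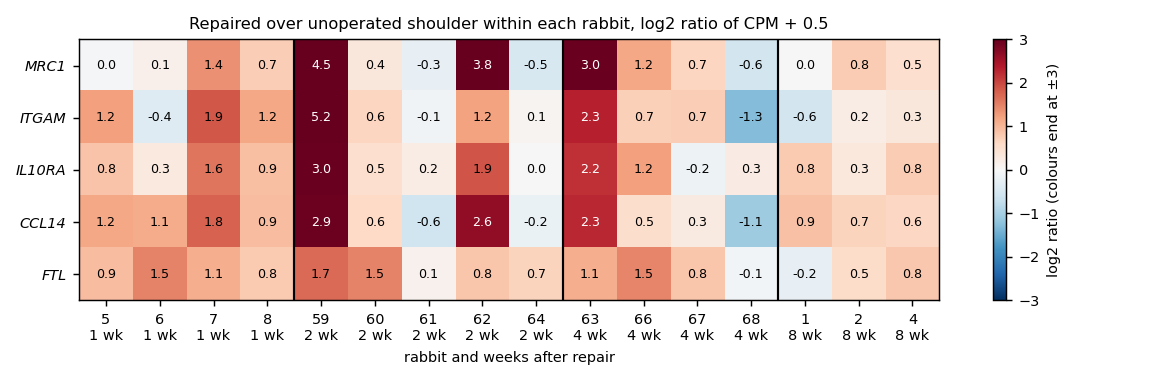
log2 ratio of repaired over unoperated CPM plus 0.5 for each gene (vertical) in each of 16 rabbits (horizontal, ordered by weeks after repair), red for higher on the repaired side, with colours ending at 3 either way. Rabbits 59, 62 and 63 are the most strongly red, and rabbit 68 is blue for ITGAM and CCL14.

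The ratios of MRC1, ITGAM, IL10RA and CCL14 were correlated across rabbits. Over the 6 pairs among these 4 genes, Pearson's r was 0.790 to 0.897 (adjusted permutation p 0.0001 to 0.000333 over 10 pairs in all) and Spearman's rho was 0.715 to 0.826 (adjusted permutation p 0.0012 to 0.0047). The smallest unadjusted p, 2e-05, is the smallest that 100000 permutations can give. Without the 2 rabbits farthest from the median r was 0.652 to 0.814. Within the 9 rabbits of 2 and 4 weeks r was 0.852 to 0.977 (exact permutation test, adjusted p 0.00077 to 0.00523), and within the 7 of 1 and 8 weeks it was 0.423 to 0.767 and passed for none (exact permutation test, adjusted p 0.313 to 0.523). The relation was thus seen in the series of 2 and 4 weeks and was not shown in the other. These genes were chosen with earlier results of these data known, so the p-values are no independent test of the relation. How many pairs among all genes correlate as closely was not counted. Rabbit 59 had the highest log2 ratio of all rabbits for each of the 4 genes, at 4.47, 5.20, 2.97 and 2.94. Within the 9 rabbits r was not computed without it. The values of a rabbit share its 2 libraries and their scaling.

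FTL followed the other 4 less closely, with r of 0.460 to 0.633 over 16 rabbits (adjusted permutation p 0.00434 to 0.0639) and 0.245 to 0.519 without the 2 farthest rabbits. Within the 9 rabbits of 2 and 4 weeks it was 0.593 to 0.735 (exact permutation test, adjusted p 0.0109 to 0.0848), and within the 7 of 1 and 8 weeks 0.0129 to 0.430 (adjusted p 0.452 to 0.977). Whether FTL differs from the others in this was not tested, and the limit set by the choice of genes applies here too.

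The unoperated muscles were not alike at all times. MRC1 lay between 5.42 and 18.5 CPM (median 10.7) in the 8 controls of 1 and 8 weeks and between 0.983 and 5.19 CPM (median 2.98) in the 9 of 2 and 4 weeks, with no overlap, as for 2.51% of all genes in that direction. The log2FC between these sets was 1.92 (SE 0.85, adjusted p = 0.129), and it passed in edgeR at 1.86 (adjusted p = 0.0295), in DESeq2 at 1.85 (adjusted p = 0.00583) and without the repaired library of rabbit 59 at 1.92. IL10RA was higher in the controls of 1 and 8 weeks, at 0.357 to 1.33 CPM against 0 to 0.621 CPM. The lower set rests on 1 to 3 counts per library at 2 weeks and 0 to 6 at 4 weeks. The fitted log2FC, which depends on the small count added to zeros, was 2.14 (SE 0.72, adjusted p = 0.0414). It passed, as did 7.87% of all genes in that direction. That call was kept in 19 of 33 fits that left out 1 library, at 1.98 to 2.60, and lost without the unoperated library of any of rabbits 1, 3, 4, 5, 6, 7, 59, 60, 61, 62, 63, 64, 66 and 68. It was lost also in edgeR, with all 34 libraries and with a filter in 5 libraries. ITGAM (1.00, adjusted p = 0.415), CCL14 (0.55, adjusted p = 0.611) and FTL (-0.49, adjusted p = 0.178) did not pass, and FTL was the only 1 of the 5 with the lower levels at 1 and 8 weeks. These controls come from other animals, other times, the other series of titles and libraries of other depth. Which of these moves with the levels cannot be told apart.

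Other genes of the same cells and pathways were read from lists of known genes. Symbols could be had for 3310 of the 12937 genes, 1863 of them from a list in identifier order and 1447 from a co-expression module that the study built on these data. Genes named through the module were chosen on these samples and move with it by construction, so their direction is not independent evidence, and the name of IL10RA comes from there too. Counts below give this source.

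Of 25 macrophage genes (scavenger and Fc receptors, complement C1q and others), 12 were named and tested, 10 of them through the module. At 1 week 1 of 12 passed, where 6.81% of all genes passed higher. It was SIGLEC1 (named through the module), a sialic acid-binding receptor of tissue macrophages, at 12.8 ± 4.73 against 4.04 ± 0.79 CPM (SD, n = 4 each, log2FC 1.61, adjusted p = 0.0259). At 1 week 11 of 12 had a log2FC above 0, all 10 of those named through the module among them. Of the 2 from the list in identifier order 1 lay above 0 at each of the 4 times. The count of 11 therefore cannot be set against the 53.7% of all genes above 0. At 2 weeks 0 passed with a median log2FC of 2.05, or 1.06 without the repaired library of rabbit 59, against 1.12 at 1 week. The summed level was 548 and 138 CPM in the repaired muscles of rabbits 59 and 62, 24.5, 17.6 and 11.4 CPM in those of rabbits 60, 61 and 64, and 13.7 to 24.9 CPM in the controls. Averaged over time 4 of 12 passed, all higher and 3 of them named through the module, against 22.4% of all genes: CD209, FCGR1A, SIGLEC1 and F13A1.

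Among 28 genes of leukocyte integrins and myeloid signalling, 18 were tested, 10 of them named through the module. TLR2, a receptor for bacterial lipoproteins, passed at 1 week with 1.83 ± 0.54 against 0.329 ± 0.101 CPM (n = 4 each; log2FC 2.37, adjusted p = 0.0464), and the call was kept in 14 of 33 fits that left out 1 library. LYN, a Src-family kinase, passed at 2 weeks with a log2FC of 1.04 (adjusted p = 0.0346), and without the repaired library of rabbit 59 it was 0.67 (adjusted p = 0.135). Both were named from the list in identifier order. Each was the only 1 of the 18 to pass at its time, where 6.81% and 7.95% of all genes passed higher at 1 and 2 weeks. The average passed in 5 of 18, all higher, a share near the 22.4% of all genes. ITGB2, the partner chain of ITGAM, did not pass at any time; its log2FC was 1.45, 1.5, 1.09 and -0.11 at 1, 2, 4 and 8 weeks.

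A list of interleukin-10 receptor signalling and other genes of inflammation control held 11 genes, of which 4 were tested, 3 of them from the list in identifier order. None of those that belong to interleukin-10 signalling passed at a single time. The gene that passed was IL4R, a receptor chain for interleukin-4 and interleukin-13 that is no part of the interleukin-10 receptor: 11.1 ± 2.61 against 4.35 ± 0.71 CPM at 1 week (n = 4 each; log2FC 1.37, adjusted p = 0.0139) and 16.1 ± 12.2 against 4.73 ± 0.60 CPM at 2 weeks (n = 5 each; log2FC 1.54, adjusted p = 0.0121), without overlap at either. The call of 2 weeks was kept in 33 of 33 fits that left out 1 library and that of 1 week in 32. IL10RB, the second chain of the interleukin-10 receptor, had a log2FC of 0.80 at 1 week (adjusted p = 0.163) and 1.15 at 2 weeks (adjusted p = 0.0849) and passed on average at 0.69 (adjusted p = 0.0197). STAT3, the transcription factor that the receptor activates, passed on average at 0.26 (adjusted p = 0.0219). Of the 4 genes 1 passed higher at 1 week and 1 at 2 weeks (6.81% and 7.95% of all genes), and 3 on average (22.4%).

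Of 26 chemokines and chemokine receptors 2 were tested, CCL21 named through the module and CXCR4 from the list in identifier order. CCL21, a chemokine of lymphatic vessels, had a log2FC of 1.23 at 1 week (adjusted p = 0.108) and 1.36 at 2 weeks (adjusted p = 0.143); with the rabbit block both passed, at 1.28 (adjusted p = 0.0167) and 1.59 (adjusted p = 0.0134). Without the repaired library of rabbit 59 the value of 2 weeks was 1.01 (adjusted p = 0.390). CXCR4, a chemokine receptor of leukocytes and vessels, had 0.44 (adjusted p = 0.386) and 0.59 (adjusted p = 0.286), the latter 0.33 without that library.

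Of 18 iron genes other than FTL 6 were tested, 1 of them named through the module. The log2FC was above 0 in 4, 4, 5 and 5 of the 6 at 1, 2, 4 and 8 weeks, with medians of 0.27, 0.29, 0.24 and 0.16. At 2 weeks the median was 0.17 without the repaired library of rabbit 59. STEAP4, a metalloreductase, passed at 2 weeks at 55.1 ± 48.98 against 18.8 ± 1.51 CPM (n = 5 each; log2FC 1.15, adjusted p = 0.0289), and was 0.73 (adjusted p = 0.110) without the repaired library of rabbit 59. Averaged over time 3 of 6 passed higher, against 22.4% of all genes: STEAP4, the ferroxidase CP and the biliverdin reductase BLVRB, at 0.67, 1.40 and 0.43. PCBP1, an iron chaperone, fell by 0.21 on the log2 scale. NCOA4, which delivers ferritin for breakdown, had 0.02 (adjusted p = 0.816). FTH1, the heavy chain of ferritin, is not among the named genes.

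**Figure D4:**
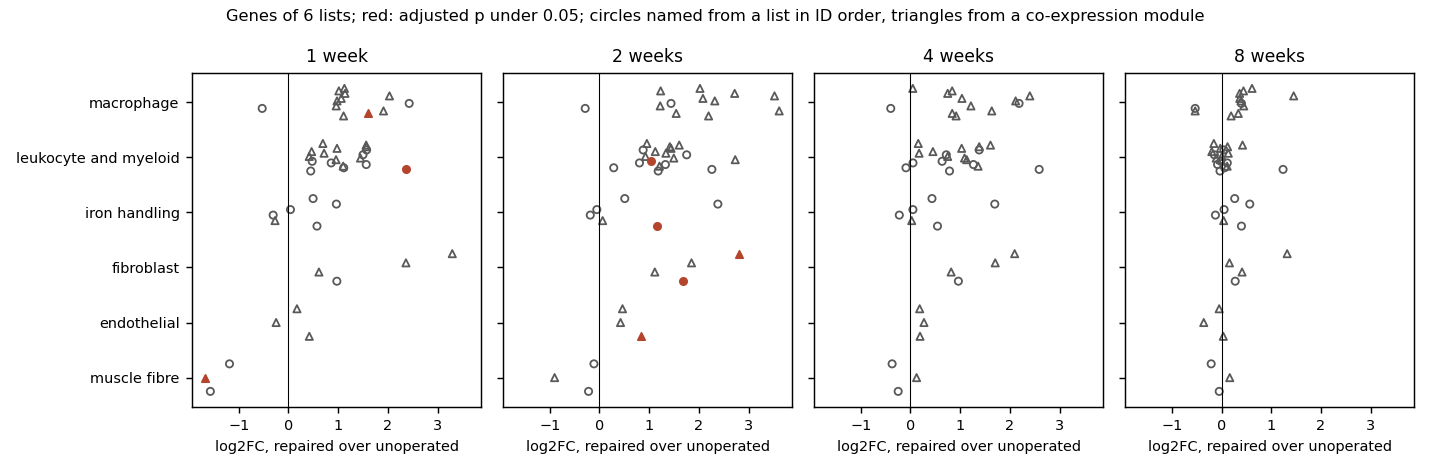
log2FC of repaired over unoperated muscle (horizontal) for each tested gene of 6 lists at 1, 2, 4 and 8 weeks: filled red points have an adjusted p under 0.05, circles are genes named from the list in identifier order and triangles genes named through the co-expression module. Macrophage genes lie mostly above 0 at all 4 times (10 of 12 at 8 weeks), but of their 2 circles only 1 does at each time. Myeloid genes lie mostly above 0 at 1, 2 and 4 weeks but not at 8 weeks (9 of 18).

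Markers of other cells moved with the same muscles, which for those named through the module is so by construction. For fibroblasts 4 of 5 genes were tested, 3 of them named through the module, COL1A1 included, while PDGFRA was not. PDGFRA and COL1A1 passed at 2 weeks at 1.68 (adjusted p = 0.0467) and 2.80 (adjusted p = 0.0331), where 7.95% of all genes passed higher. All 4 did on average, against 22.4% of all genes. Their summed level was 37533 and 10602 CPM in the repaired muscles of rabbits 59 and 62, 500 to 1445 CPM in the other 3 and 593 to 996 CPM in the controls of 2 weeks, and 3579 to 13174 against 1043 to 1384 CPM at 1 week. Without the repaired library of rabbit 59, PDGFRA was 1.08 (adjusted p = 0.162) and COL1A1 1.69 (adjusted p = 0.177). For endothelium 3 of 6 genes were tested, all 3 named through the module. VWF passed at 2 weeks at 0.84 (adjusted p = 0.0418), or 0.44 (adjusted p = 0.177) without that library. Their summed level was 110.2 to 629 CPM in repaired muscles of 2 weeks, highest in rabbit 59, and 126 to 145 CPM in controls. For fat cells 2 of 5 were tested, ADIPOQ named through the module and LIPE from the list in identifier order. ADIPOQ passed at 1 and 2 weeks at 1.51 (adjusted p = 0.0338) and 1.43 (adjusted p = 0.0149), and LIPE at 1 week at 1.9 (adjusted p = 0.0287). Of 33 fits that left out 1 library, the calls of 1 week were kept in 27 for ADIPOQ and 28 for LIPE, and those of 2 weeks in 31 for ADIPOQ (lost without the repaired library of rabbit 59, at 1.19 with adjusted p = 0.0682, or of rabbit 62, at 1.10 with adjusted p = 0.05004), 28 for COL1A1, 26 for VWF and 14 for PDGFRA.

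Among muscle fibre genes 3 of 12 were tested, 1 of them, MYOM2, named through the module. MYOM2, a protein of the M-band, fell at 1 week by 1.67 on the log2 scale (adjusted p = 0.0198). Without the repaired library of rabbit 6 it was -0.96 (adjusted p = 0.0637). The summed level of the 3 was 8013 and 11793 CPM in the repaired muscles of rabbits 59 and 62 and 25220 to 38526 CPM in those of rabbits 60, 61 and 64, against 13193 to 40565 CPM in the controls of 2 weeks. At 1 week it was 3629 to 33499 CPM in repaired muscles, lowest in rabbit 6, and 33266 to 45225 CPM in controls. No gene of the T and NK cell, B cell and neutrophil lists was among those named, so ITGAM could not be set against neutrophil markers. The part of fibroblast, endothelial, fat and muscle fibre RNA in the levels of the 5 genes was not tested.

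The named genes whose log2 level over the 33 libraries was most like each of the 5 were taken from 2735 candidates, and the values are descriptions that share libraries and depth. For MRC1 they were FCGR2B (r = 0.955), CSF1R (0.951) and FBN1 (0.938). For ITGAM they were its partner chain ITGB2 (0.909), the leukocyte surface protein CD48 (0.872) and the class II gene HLA-DQB1 (0.872). IL10RA was followed by SCARA3 (0.925), CD48 (0.923) and COL1A1 (0.919), and CCL14 by FCGR2B (0.908), the lipid transfer protein PLTP (0.904) and MAN1C1 (0.902). All of these but HLA-DQB1 and PLTP were named through the module. The genes most like FTL were MYO1C (0.855), HDAC1 (0.850) and GNAI1 (0.844), all from the list in identifier order, and none is a macrophage marker of the lists used.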

How the data were processed

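The deposited table holds expected counts per gene and library, which the authors made by aligning reads to the rabbit genome with STAR and counting them with RSEM and the Ensembl annotation; they are not scaled. All 34 columns were matched to samples by title (0 columns unused). Groups come from the labels. The main fit takes the libraries as independent and leaves out the pairing of shoulders. Its p-values therefore measure the spread between libraries within groups, pooled over all groups, and not the spread of paired differences between rabbits. A library can thus move calls at times other than its own. The pairing enters the fits with the rabbit block or the rabbit correlation.

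Genes with CPM over 1 in at least 1 of 33 libraries were kept (12937). The model was limma-voom on TMM-scaled values, each of the 8 groups having its own mean, run in R 4.3.3 with limma 3.58.1 and edgeR 4.0.16. Per the methods 1 repaired sample at 8 weeks failed quality control, and the left library of rabbit 3 was left out. For edgeR's quasi-likelihood test and DESeq2 1.42.0, expected counts were rounded to whole numbers. Alternatives were median-ratio size factors, no filter, a filter in 5 libraries, all 34 libraries, the rabbit as a fixed block, a correlation between shoulders (estimated at 0.174) and each library left out in turn. Added after the values were seen were these settings for the controls across times and for named list genes, and levels and list medians of 2 weeks without the repaired library of rabbit 59.

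The shoulders of a rabbit are the same animal, and their residuals correlated at 0.0252 to 0.434 (median 0.257) over 16 rabbits. The 5 genes and the lists were chosen with earlier results of these data known. From each list up to 3 genes with the smallest adjusted p at 1 or 2 weeks were named, or the 2 of highest level where none passed; other list genes (ITGB2, IL10RB, STAT3, CP, BLVRB, PCBP1, NCOA4 and those that passed on average) were chosen after their values were seen. For each of the 5 genes the 3 named genes of highest Pearson r were given. Symbols are those of human orthologs in the study's supplementary tables, from which no value was used. Within-rabbit ratios added 0.5 CPM; their correlations used 100000 permutations, or all of them within a series (NumPy 2.4.6). The limma-voom step was run on simulated counts drawn independently for each library. These held no pairing of shoulders, no outlying library and no difference between series, so they do not check the calls under such conditions. The gene table at hand belongs to another assembly, so no position or sequence is given. Figures were drawn with matplotlib 3.10.9.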

Additional observations from a re-analysis of the deposited data

Results flagged for a closer look

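Of 35 groups of values tested for a library far from the rest, 2 held one, a share near the about 1 in 20 that chance gives. In the unoperated muscle of rabbit 59 at 2 weeks ITGAM stood at 0.104 CPM, far under the other 4 controls, and the gap was 0.712 of the range of the group on the log2 scale. In the unoperated muscle of rabbit 67 at 4 weeks IL10RA stood at 0.621 CPM while the other 3 controls had no count. The gap is therefore the whole range, as any count above 0 there would have made it. Both rest on few counts.

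The repaired library of rabbit 3 at 8 weeks, which entered no comparison, held 2.48 CPM of IL10RA, 91.5 CPM of CCL14 and 7290 CPM of FTL when scaled with all 34 libraries. These lie above the highest control at 1.31, 5.14 and 313 CPM. For CCL14 and FTL they lie also above the highest of the other libraries, at 15.8 and 888 CPM. MRC1 at 4.06 CPM and ITGAM at 1.13 CPM did not exceed the controls, which reached 17.9 and 1.83 CPM. The library has about 8756030 counts on genes, the fewest of the 34. Its highest correlation with any other library on the log2 scale was 0.735, the lowest of the 34. The next lowest was 0.911, for the repaired library of rabbit 59 at 2 weeks. Its levels are therefore not read as an effect of repair.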

How the results depend on the processing

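The average over time stayed higher and past the threshold for IL10RA, CCL14 and FTL under all 8 other settings that did not leave out a single library of those fitted. At 2 weeks MRC1, ITGAM, IL10RA and CCL14 passed in edgeR (3.25, 2.93, 3.04 and 2.07) and in DESeq2 (3.26, 2.95, 3.07 and 2.07), as did the averages of MRC1 (1.45 in both) and ITGAM (1.43 and 1.44). More of all genes passed at 2 weeks in edgeR and DESeq2 than in limma-voom (counts below), so calls gained there were not limited to these genes. The share of all genes that passed higher in these tools is not given. Whether these calls hold in edgeR or DESeq2 without the repaired library of highest level at 2 weeks was not tested. With the rabbit as a block, the pairing by animal, calls were gained for MRC1 at 2 weeks (2.87) and on average (1.33), ITGAM on average (1.27), IL10RA at 1 and 2 weeks (1.59 and 2.48), CCL14 at 1 and 2 weeks (1.49 and 1.97) and FTL at 1 week (1.06), and no other call of these genes between shoulders changed. FTL at 1 week passed with the rabbit correlation (1.06) and in DESeq2 (1.08), and FTL at 2 weeks was lost without a filter (0.89) and with all 34 libraries (0.95). None of the differences between times passed under any of these settings, but IL10RA at 2 against 4 weeks turned positive with the block (0.34), in edgeR (0.83) and in DESeq2 (0.82). With all 34 libraries, which add the repaired library of rabbit 3, CCL14 and FTL at 1 against 8 weeks turned negative (-0.18 and -0.88). Between controls, the MRC1 difference passed in edgeR (1.86) and DESeq2 (1.85), and that of IL10RA was lost with a filter in 5 libraries (2.14), with all 34 (2.11) and in edgeR (1.85). The causes were not tested.

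Genes called numbered 1771, 2053, 16 and 1 at 1, 2, 4 and 8 weeks. With all 34 libraries they were 294, 412 and 5 at 1, 2 and 4 weeks, with the block 3406, 4088 and 364, and with the rabbit correlation 2892, 3257 and 189. In edgeR they were 3716 and 326 at 2 and 4 weeks, in DESeq2 4033, 666 and 5 at 2, 4 and 8 weeks, without a filter 51 and 3 at 4 and 8 weeks, and with a filter in 5 libraries 0 at 8 weeks. Leaving out 1 library each gave 593 to 3596, 328 to 3456, 2 to 345 and 0 to 4. Pseudocounts of 0.1 and 2 CPM moved the median within-rabbit ratios by less than their spread.

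Without 1 library each, values ran as follows. For MRC1 they ran from 0.88 to 2.47 at 2 weeks, -0.027 to 0.61 at 8 weeks, -0.19 to 0.59 for 1 against 8 weeks, -0.33 to 1.26 for 2 against 4 weeks and 1.76 to 2.12 between controls. For ITGAM they ran from -0.30 to 0.43 at 8 weeks and 0.85 to 1.22 on average, and for IL10RA from 1.28 to 2.51 at 2 weeks, -1.33 to 0.10 for 2 against 4 weeks and 1.98 to 2.60 between controls. For CCL14 the average ran from 0.90 to 1.22, and for FTL values ran from 0.88 to 1.24 at 1 week, 0.65 to 1.16 at 2 weeks and -0.20 to 0.38 for 2 against 4 weeks. Depth limits IL10RA most, with 0 to 6 counts in each control of 2 and 4 weeks, and with 3 to 5 rabbits a group intervals at a single time are wide. Controls of different times are different rabbits, so no rabbit block applies to them.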
